A study of Mus musculus with 4 samples.

Results

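Notch1, Notch2 and Jag1 encode 2 receptors and 1 ligand of the Notch pathway, and these 3 genes were taken by symbol from a deposited table of 2701 genes. RNA-seq read counts came from 4 libraries of mouse pyloric stomach (strain C57BL/6), 2 per genotype. WT mice carried Lats1fl/fl;Lats2fl/fl and no Cre, and Lats1/2iΔLgr5 mice carried the same floxed alleles with Lgr5-CreER, a tamoxifen-inducible recombinase expressed from the stem cell gene Lgr5. Both groups were collected 8 weeks after tamoxifen. Recombination starts in Lgr5-positive cells at the gland base and is inherited by their progeny, so sections 10 µm thick held recombined epithelium, unrecombined epithelium and other tissue together. The Lgr5-CreER allele was present in the Lats1/2iΔLgr5 group alone, so its own effect and that of the deletion cannot be told apart. Animal ages and the number of mice behind a library are not given in the labels, so p-values measure the spread between these libraries, which may be technical.

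Notch signalling passes between touching cells. A ligand of the Jagged or Delta-like family on one cell binds a receptor on its neighbour. ADAM10 and then the gamma-secretase complex cut the receptor, and the freed intracellular domain joins the DNA-binding protein RBPJ in the nucleus to switch on targets such as the Hes and Hey repressors. In the antrum and pylorus of the stomach, Notch signalling is known for keeping gland-base stem cells dividing and for restraining endocrine differentiation, with Notch1 and Notch2 as the receptors involved. LATS1 and LATS2 are kinases of the Hippo pathway that restrain YAP and TAZ, and Jag1 and Notch2 are known YAP-responsive genes in the liver.

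The sequence just upstream of each gene's RefSeq start is shown because 2 of the genes rose together and because TEAD and RBPJ proteins act by binding DNA. It comes from RefSeq on GRCm38.p6 and is read 5′ to 3′ on the gene's own strand, ending at the first annotated exon that it reaches. The capitals mark CATTCC, the reverse complement of GGAATG, which is the core bound by TEAD factors, the DNA-binding partners of YAP.
Notch1 (chr2:26503825-26504072, minus strand): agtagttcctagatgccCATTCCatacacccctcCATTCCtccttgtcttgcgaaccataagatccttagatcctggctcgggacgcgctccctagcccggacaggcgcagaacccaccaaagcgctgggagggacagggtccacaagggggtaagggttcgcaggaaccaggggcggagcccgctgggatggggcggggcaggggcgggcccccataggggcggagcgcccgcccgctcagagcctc
Notch2 (chr3:98013288-98013526, plus strand): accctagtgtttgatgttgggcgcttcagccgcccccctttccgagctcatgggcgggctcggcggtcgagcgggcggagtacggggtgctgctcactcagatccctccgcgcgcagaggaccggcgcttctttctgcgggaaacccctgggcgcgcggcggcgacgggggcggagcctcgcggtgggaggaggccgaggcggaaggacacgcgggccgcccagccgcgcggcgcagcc
Jag1 (chr2:137116645-137116770, minus strand): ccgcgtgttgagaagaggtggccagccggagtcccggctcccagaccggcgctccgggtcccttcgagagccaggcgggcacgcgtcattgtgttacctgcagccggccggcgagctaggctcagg
The 250 bases before each RefSeq start were searched on both strands for GGAATG and for TGGGAA, the core bound by RBPJ; matches to the 2 motifs can overlap in the letters GGAA. Notch1 held GGAATG 2 times, at 233 and 216 bases before the start, both in reverse. Notch2 and Jag1 held neither motif in that window, and TGGGAA was found in none of the 3. Of 32851 mouse promoter windows of the same length, 12.6% held GGAATG at least 1 time and 1.02% held it 2 or more times, and 21.6% held TGGGAA. A match here is a description of letters, and its absence from so short a window says nothing of either factor. The annotated Jag1 start lies further upstream in GENCODE than in RefSeq, so only 126 bases are shown for it. For Notch1 the GENCODE gene starts further upstream still, at 26516663. The Notch1 stretch and its 2 matches therefore lie inside the annotated gene, not before it. GC content over the 250 bases was 66.0% for Notch1, 72.0% for Notch2 and 57.2% for Jag1, against a median of 52.4% over all windows.

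The table holds only genes with a deposited adjusted p of at most 0.05, and the deposited p-values imply that about 13141 genes were tested. Of these, 20.6% were listed, 8.81% as higher in Lats1/2iΔLgr5 and 11.7% as lower. Every gene described below had therefore already passed the authors' threshold, and edgeR's quasi-likelihood test on the same counts called 99.9% of the listed genes (42.9% as higher, 57.1% as lower), so a call here adds no independent support. The 2 groups did not overlap in 99.9% of listed genes either. Of the genes edgeR called, 42.9% were higher with the authors' size factors, 70.0% with TMM scaling and 72.8% with DESeq2 size factors computed from the listed genes. Those scalings moved the median log2 fold change of all listed genes from -0.50 to -0.14 and -0.10, and directions below are relative to the authors' scaling. Listed genes held from 13413629 to 17689207 counts per library. As a check of the genotype, mean normalized counts of Lats1 were 2063 ± 125 in WT and 1036 ± 132 in Lats1/2iΔLgr5 (SD, n = 2), without overlap; Lats2 has no values here.

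Both receptor genes among the 3 rose in the Lats1/2iΔLgr5 pylorus and the ligand gene fell. Notch1 was 1.98-fold and Notch2 1.72-fold higher, and Jag1 was 2.01-fold lower. In each of the 3 genes both Lats1/2iΔLgr5 libraries lay on one side of both WT libraries. In bulk tissue a change in how many cells of a type are present and a change in RNA per cell cannot be told apart.

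**Figure D1:**
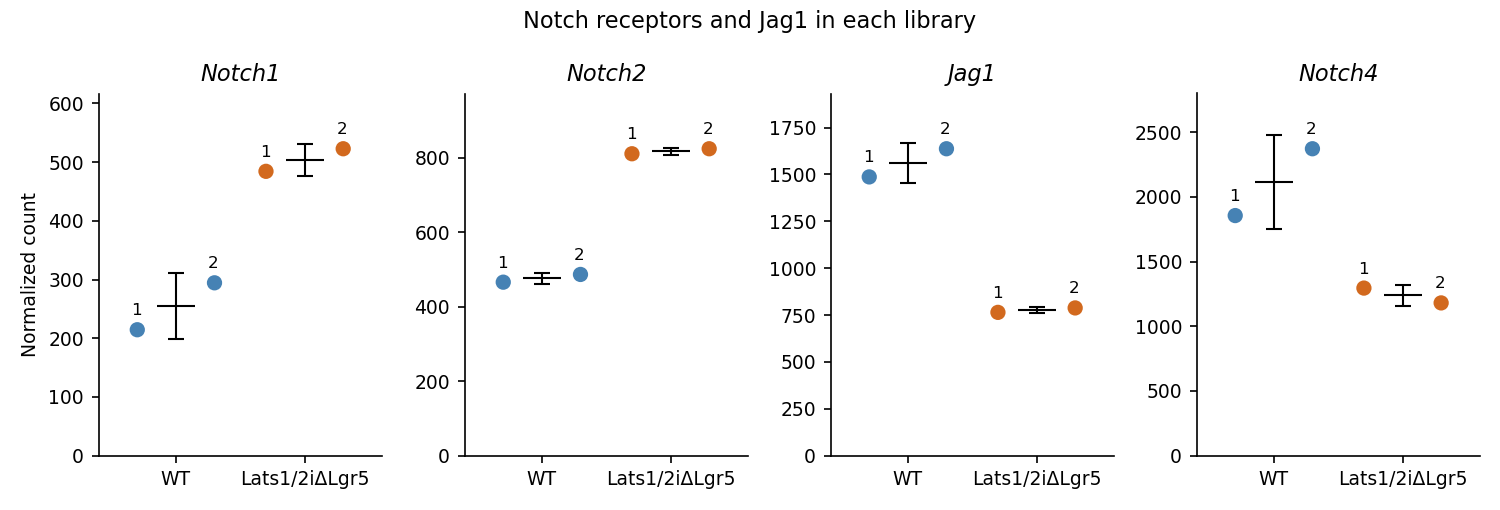
Normalized counts (y axes, each from 0) of Notch1, Notch2, Jag1 and Notch4 in the 2 WT libraries (blue) and the 2 Lats1/2iΔLgr5 libraries (orange); dots are libraries with their replicate number, and the horizontal line and bar give mean ± SD. Notch1 and Notch2 were higher in both Lats1/2iΔLgr5 libraries, and Jag1 and Notch4 lower.

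Notch1 (ENSMUSG00000026923, GRCm38 chromosome 2, 26457903 to 26516663, minus strand) encodes a receptor known for maintaining stem and progenitor cells. Raw counts were 170 and 267 in the WT pair and 535 and 669 in the Lats1/2iΔLgr5 pair, in replicate order. Divided by the library size factors, these gave 215 and 294 normalized counts for WT against 484 and 523 for Lats1/2iΔLgr5. WT 1 was the lowest library, and the gap between the 2 WT libraries was wider than that between the 2 Lats1/2iΔLgr5 libraries. Group means were 255 ± 56.5 and 504 ± 27.2 (SD, n = 2), and the log2 fold change was 0.98 ± 0.25 (SE). EdgeR's adjusted p was 0.0166, and that in the authors' deposited table is 0.00592. Notch1 had the lowest counts of the 3 genes: the 95% exact Poisson interval of the 170 counts in WT 1 runs from 145 to 198, covering counting error only. The log2 fold change was 0.77 without WT 1 and 1.23 without WT 2. Without Lats1/2iΔLgr5 1 or Lats1/2iΔLgr5 2 the edgeR adjusted p rose to 0.0553 and 0.0845.

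Notch2 (ENSMUSG00000027878, chromosome 3, 98013527 to 98150361, plus strand), a close paralogue of Notch1 with its own row, was the steadier of the 2 receptors. It had 369 and 441 raw counts in WT and 895 and 1054 in Lats1/2iΔLgr5, or 466 and 486 against 810.3 and 823.8 normalized counts. Replicates lay close together in both groups, far closer than the groups lay to each other. Group means were 476 ± 14.7 and 817 ± 9.50 (SD, n = 2). The log2 fold change was 0.78 ± 0.17 (SE), with an edgeR adjusted p of 0.0140, and the authors' deposited table has 0.00122. Leaving out any 1 library kept the log2 fold change between 0.75 and 0.81, though the adjusted p became 0.0545 without Lats1/2iΔLgr5 1 and 0.0785 without Lats1/2iΔLgr5 2.

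Jag1 (ENSMUSG00000027276, chromosome 2, 137081456 to 137116644, minus strand) encodes a membrane-bound ligand for these receptors. Its raw counts were 1178 and 1484 in WT and 844 and 1008 in Lats1/2iΔLgr5. On the normalized scale WT 1 and WT 2 stood at 1487 and 1637, and the Lats1/2iΔLgr5 libraries at 764 and 788. Both Lats1/2iΔLgr5 values were near the midpoint between 0 and the WT level. Group means were 1562 ± 106 and 776 ± 16.7 (SD, n = 2). The log2 fold change was -1.01 ± 0.16 (SE), with an edgeR adjusted p of 0.0117; the authors' deposited table has 1.14e-06. By deposited p it stood at rank 199 of the 2701 listed genes, against rank 926 for Notch2 and 1390 for Notch1. Other scaling made its fall smaller, at -0.65 with TMM and -0.60 with DESeq2 factors from the listed genes, and the rises larger, at 1.35 and 1.40 for Notch1 and 1.14 and 1.19 for Notch2; all 3 still passed. Without Lats1/2iΔLgr5 2 its edgeR adjusted p was 0.0702.

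**Figure D2:**
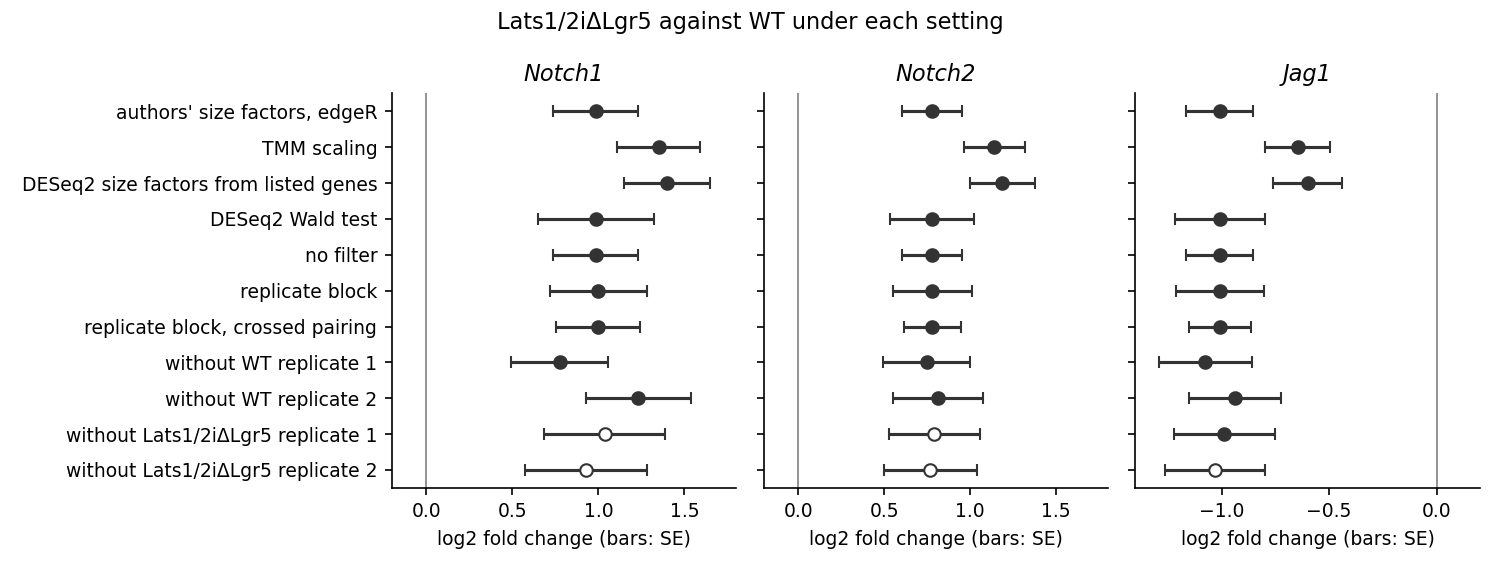
Log2 fold changes of Notch1, Notch2 and Jag1 (x axes; bars are SE) between Lats1/2iΔLgr5 and WT under each setting; filled points have an adjusted p under 0.05 and open points do not. Each gene kept its direction in all 11 settings, and open points occur only where a Lats1/2iΔLgr5 library was left out.

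Set against listed genes of the same direction, the receptors' rises were smaller than the median and Jag1's fall was larger than the median. Of listed genes that rose, 58.6% had a larger deposited log2 fold change than Notch1 and 73.9% a larger one than Notch2; the median of all that rose was 0.98. Of listed genes that fell, 24.1% had a larger change than Jag1, with a median of -0.70. These deposited values are shrunken toward 0 and stood at 0.90 for Notch1, 0.75 for Notch2 and -0.98 for Jag1 in the authors' deposited table.

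A ratio of 2 genes within a library does not depend on library scaling. Notch1 and Notch2 were listed as higher and Jag1 as lower, each without overlap. Their ratios to Jag1 therefore had to separate the groups, and that separation and its permutation p add no support. The ratios describe size only. For each Jag1 count WT libraries held 0.144 and 0.180 Notch1 counts, and Lats1/2iΔLgr5 libraries held 0.634 and 0.664. The groups did not overlap, and the ratio was 4.03-fold higher in Lats1/2iΔLgr5, a log2 difference of 2.01 between means of -2.63 ± 0.22 and -0.62 ± 0.05 (SD, n = 2). For Notch2 the ratio to Jag1 was 0.313 and 0.297 in WT and 1.06 and 1.05 in Lats1/2iΔLgr5, so that Notch2 counts passed Jag1 counts in both Lats1/2iΔLgr5 libraries. That was a log2 difference of 1.79, from -1.71 ± 0.05 to 0.07 ± 0.01. The ratio of Notch1 to Notch2 was 0.461 and 0.605 in WT and 0.598 and 0.635 in Lats1/2iΔLgr5. Here the groups overlapped, and the log2 difference of 0.22 was smaller than the SD of 0.28 between the WT libraries. The exact two-sided permutation p over libraries was 0.333 for both ratios to Jag1, the smallest that 2 against 2 allows, and 0.667 for Notch1 to Notch2. Adjusted over the 3 ratios these were 0.500 for both and 0.667.

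**Figure D3:**
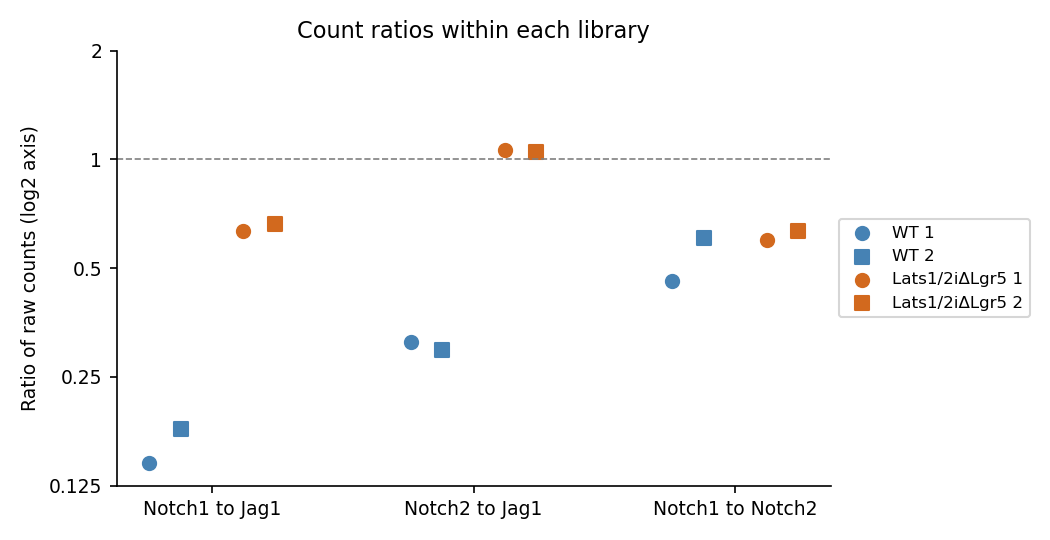
Ratio of raw counts within each library (y axis, log2 scale; dashed line at equal counts) for 3 gene pairs; colours mark genotype and symbols the replicate number. Both receptor-to-Jag1 ratios were higher in the Lats1/2iΔLgr5 libraries without overlap, while the Notch1 to Notch2 ratios overlapped.

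Levels of different genes can be compared only per length. Counts were divided by the length of each gene's merged exons, 14232 bases for Notch1, 10782 for Notch2, 5827 for Jag1 and 8061 for Notch4. In WT, Jag1 stood at 268 ± 18.2 normalized counts per kb of exon (SD, n = 2), Notch4 at 262 ± 45.3, Notch2 at 44.1 ± 1.36 and Notch1 at 17.9 ± 3.97. Jag1 and Notch4 did not differ beyond their spread in WT, and by the length of the main transcript Notch4 came first (321 against 278). In Lats1/2iΔLgr5 the order was Notch4 (154 ± 10.0), Jag1 (133 ± 2.87), Notch2 (75.8 ± 0.881) and Notch1 (35.4 ± 1.91). Notch1 stayed the lowest of the 4 in every library. The sum of Notch1 and Notch2 per kb was 0.228 and 0.234 of the Jag1 level in WT, and 0.833 and 0.837 of it in Lats1/2iΔLgr5. By the length of the main transcript, 9488 bases, Notch1 stood higher, at 26.8 in WT and 53.1 in Lats1/2iΔLgr5. The receptor sums and shares therefore depend on the length used.

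**Figure D4:**
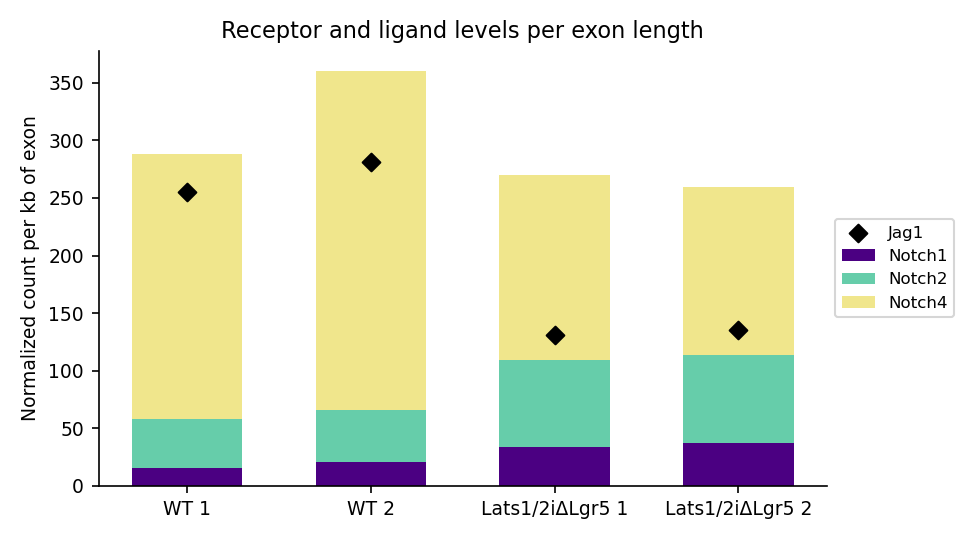
Normalized counts per kb of merged exon (y axis, from 0) in each library, stacked for Notch1, Notch2 and Notch4, with Jag1 as diamonds. Notch1 and Notch2 form a larger part of the stack in both Lats1/2iΔLgr5 libraries, and Jag1 is lower there.

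Notch4, the third receptor gene with a row, went the other way from Notch1 and Notch2. Notch4 is best known from blood vessel endothelium. It had 1855 and 2371 normalized counts in WT against 1295 and 1180 in Lats1/2iΔLgr5. Means were 2113 ± 365 and 1237 ± 81.0 (SD, n = 2), and the log2 fold change was -0.77 ± 0.18 (SE). Both Lats1/2iΔLgr5 libraries lay below both WT libraries, and WT 2 was well above WT 1. EdgeR's adjusted p was 0.0149, but 0.0715 with TMM scaling and 0.0801 without Lats1/2iΔLgr5 2. Among the 3 receptors with a row, summed per kb, Notch1 and Notch2 together made up 20.2% in WT 1, 18.3% in WT 2, 40.5% in Lats1/2iΔLgr5 1 and 43.6% in Lats1/2iΔLgr5 2. The fourth receptor gene, Notch3, has no values here.

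Across 84 genes of the Notch pathway, 12 were listed (14.3%, against 20.6% of all genes tested), 5 higher and 7 lower, or 5.95% and 8.33% of the lists against 8.81% and 11.7%. Apart from the 3 genes themselves, 9 of 81 were listed, 3 higher and 6 lower, with a median deposited log2 fold change of -0.63, against -0.49 over all listed genes. The share of these lists is over all their names, tested or not, and the lists were chosen with earlier results known. It is therefore only roughly comparable with the share of all genes tested. Of 7 ligand genes, Jag1 was the only one listed, and none of the 4 E3 ligase genes that internalise ligands or the 6 genes that glycosylate receptors was listed.

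Of 9 receptor cleavage genes, 1 was listed. Adam10, the protease of the first activating cut, had 11443 and 11803 normalized counts in WT and 8142 and 6650.5 in Lats1/2iΔLgr5, a log2 fold change of -0.65 ± 0.15 (SE). It was lower in both Lats1/2iΔLgr5 libraries than in either WT library.

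Trafficking and turnover genes went both ways, with 3 of 11 listed. Itch, an E3 ligase that promotes Notch degradation, had 3477 and 3686 normalized counts in WT and 2426 and 2421 in Lats1/2iΔLgr5, a log2 fold change of -0.56 ± 0.12 (SE). Dtx3l, a Deltex-family E3 ligase gene that is also interferon-induced, fell from 2041 ± 938 to 488 ± 196 (SD, n = 2), the largest change in the lists at -2.07 ± 0.43 (SE) on the log2 scale, with a wide gap between WT 1 at 1378 and WT 2 at 2704. Nedd4, another E3 ligase gene, rose from 7766 ± 1508 to 11519 ± 44.0, or 0.57 ± 0.17 (SE), a value of 0.38 with an adjusted p of 0.0662 without WT 2.

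In the nucleus, 1 of 9 genes of the activating complex and none of 11 corepressor genes were listed. Kat2b, an acetyltransferase, fell from 1472 ± 65.1 to 909.4 ± 144 normalized counts (SD, n = 2), and its log2 fold change was -0.70 ± 0.18 (SE).

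Of 18 target genes, 3 were listed, and each has many regulators besides Notch. Ccnd1, the cyclin D1 gene, rose from 1946 ± 103 to 3523 ± 85.2 normalized counts (SD over 2 libraries), and Myc had 280.2 and 254 in WT against 541 and 820 in Lats1/2iΔLgr5. Cdkn1a, which encodes the cell cycle inhibitor p21, fell from 17025 ± 3735 to 7115 ± 340.0, with both Lats1/2iΔLgr5 libraries, at 7356 and 6875, below WT 1 at 14384. The Hes, Hey and Nrarp genes have no values here, and none of the 8 genes of transcription factors opposed by Notch, such as Atoh1 and Neurog3, was listed. For these 9 genes beside the 3, edgeR's adjusted p with the authors' size factors ran from 0.0117 for Ccnd1 and Cdkn1a to 0.0219 for Nedd4. With TMM scaling it was 0.106 for Adam10, 0.156 for Itch and 0.145 for Kat2b, with log2 fold changes between -0.34 and -0.20, and these 3 and Notch4 also failed with DESeq2 factors from the listed genes. Without Lats1/2iΔLgr5 2 none of the 9 passed, in a fit where only 5 of 2701 listed genes did. Without Lats1/2iΔLgr5 1, Itch and Nedd4 did not pass.

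**Figure D5:**
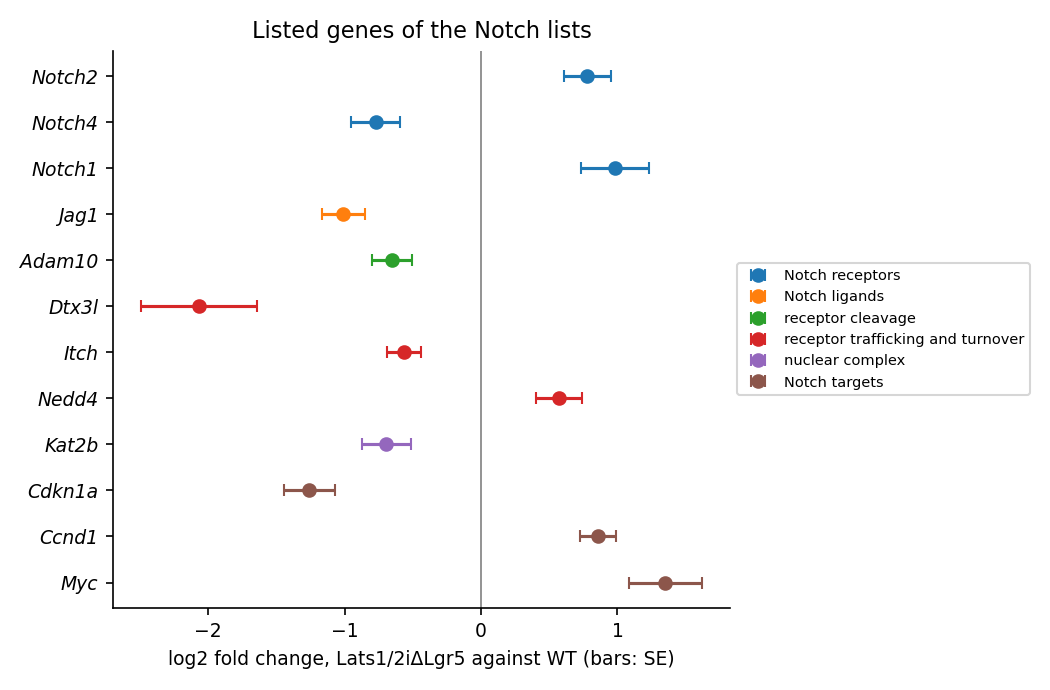
Log2 fold changes with SE (x axis) between Lats1/2iΔLgr5 and WT for the 12 listed genes of the Notch lists, coloured by role. The receptors Notch1 and Notch2 lie right of 0, and Jag1, Notch4 and Adam10 lie left of it.

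Markers of several cell types of the pylorus were listed too. Of all tested genes 20.6% were listed (8.81% higher, 11.7% lower). The share of each marker list is over all its names, tested or not, so it is only roughly comparable. Of 9 epithelial markers 5 (55.6%) were listed, 4 lower and 1 higher. Their median deposited log2 fold change was -0.51, near the -0.49 of all listed genes. Their summed level was 546611 to 674224 normalized counts in WT and 389173 to 440870.0 in Lats1/2iΔLgr5, so epithelial markers were abundant in every library. Among surface mucous markers 8 of 11 (72.7%) were listed and all 8 were lower, from 4626124 to 4922802 summed in WT and from 2050113 to 2507392 in Lats1/2iΔLgr5. Of 15 gland mucous and stem names, 2 were listed, Lgr5 as lower and Lrig1 as higher. Lgr5 stood at 58.0 and 100.4 normalized counts in WT against 25.4 and 25.8 in Lats1/2iΔLgr5. The Lgr5-CreER allele was present in the Lats1/2iΔLgr5 group alone, and its part in the Lgr5 counts was not tested. Among 13 endothelial markers only Kdr was listed, at 462 and 698 in WT and 334 and 338 in Lats1/2iΔLgr5. The 3 listed of 12 fibroblast markers (25%, near the share of all genes) were lower, summing to 10068 and 13681 in WT against 7414 and 6332. Of 9 enteroendocrine markers 2 were listed, both higher: the hormone gene Ghrl had 41.6 and 34.2 normalized counts in WT against 246 and 1288 in Lats1/2iΔLgr5, and Sst had 21.5 and 38.6 against 71.5 and 337. In both, Lats1/2iΔLgr5 2 stood far above Lats1/2iΔLgr5 1. Of 15 leukocyte markers Cd14 was listed, higher at 570.4 and 563.5 against 249.9 and 219 in WT, and of 9 parietal and chief cell markers Kcnj15 was listed, lower at 314 and 376 against 1092 and 1162. No listed marker was at 0, and none of 13 smooth muscle and pericyte markers was listed. The part of these shifts in the values of Notch1, Notch2, Jag1 and Notch4 was not tested.

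The listed genes whose pattern over the 4 libraries came closest to each of the 3 were found by Euclidean distance between log2(normalized count + 1) values centred on each gene's mean, over 2494 named genes with a base mean of at least 100. Nearest to Notch1 were Mcm4, Exosc8, Myef2, Lrwd1 and Rrm1, at distances from 0.0418 to 0.0896, against a median of 1.56. Mcm4, a subunit of the replicative helicase, had 591 and 816 normalized counts in WT and 1351 and 1403 in Lats1/2iΔLgr5, with WT 1 lowest as in Notch1. Nearest to Notch2 were Lsm7, Tanc2, Ddx39b, Abca2 and Fam185a (0.00856 to 0.0653, median 1.32). Nearest to Jag1 were Higd1a, Cpt1a, Cpeb2, Aldh3a2 and Arap2 (0.0146 to 0.0883, median 0.633). Higd1a, a mitochondrial protein gene, stood at 6244 and 6783 in WT and 3202 and 3285 in Lats1/2iΔLgr5. Notch1 and Notch2 were 0.360 apart, with 157 genes nearer to Notch1 than Notch2 was, and Jag1 and Notch4 were 0.314 apart, with 245 genes nearer to Jag1. With 4 values per gene and every gene chosen for a group difference, close matches are common.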

How the data were processed

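Per the labels' protocols, RNA was taken from cryosections of frozen stomach and made into poly(A)-selected, strand-marked libraries read at 75 bp from both ends. The submitters' processing notes name the genome build GRCm38, the aligner TopHat2 2.1.1, the counter HTSeq and DESeq2; whether reads were counted by strand is not given in the sources used here. For 2701 genes the authors deposited whole-number counts, not normalized. The other deposited columns are, per the file headers, DESeq2's base mean (a signal), log2 fold change and its error, test statistic (a score), and raw and adjusted p-value.

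Symbols from GENCODE M21 matched 2698 IDs. The authors' size factors (0.792 and 0.907 for WT, 1.10 and 1.28 for Lats1/2iΔLgr5) were recovered from base means and counts, with base means rebuilt to within 0.0119%. EdgeR 4.0.16 (quasi-likelihood, filterByExpr, Benjamini-Hochberg over the listed genes, threshold 0.05) was run in R 4.3.3 on those factors; the standard error is the log2 fold change over the square root of F. EdgeR was also run on simulated counts in which most genes did not change. The listed genes were all selected as changed, so that run does not show how the test performs on them. The table holds only genes already called, so its spread and adjustment rest on selected genes. Alternatives were TMM, DESeq2 1.42.0 factors or test, no filter, replicate blocks and leaving out each library. On the opposite strand, 2 unlisted genes overlap Notch1 exons (1068 and 414 bases), and on the same strand 1 overlaps 541 bases of Notch2 exons, so some reads there may be ambiguous. Named are the 3 genes, every listed gene of the Notch lists, Lats1, markers and the 5 nearest patterns; members and lists were chosen with earlier results of these data known. A further 2 genes first placed on the lists are not reported here and are in no list count.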

Additional observations from a re-analysis of the deposited data

How the results depend on the processing

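Notch1, Notch2 and Jag1 kept their direction in all 10 alternatives, and only leaving out a Lats1/2iΔLgr5 library ended a call. With 1 library left out in turn, the log2 fold change ranged from 0.77 to 1.23 for Notch1, from 0.75 to 0.81 for Notch2 and from -1.08 to -0.94 for Jag1; the lone library of a group was assumed to vary like the others. The log2 difference in count ratio, Lats1/2iΔLgr5 minus WT, ranged from 1.85 to 2.17 for Notch1 to Jag1. That difference ranged from 1.75 to 1.83 for Notch2 to Jag1 and from 0.02 to 0.42 for Notch1 to Notch2. EdgeR called 2698 listed genes, 1652 with TMM, 1589 with DESeq2 factors from the listed genes, and from 5 (without Lats1/2iΔLgr5 2) to 2454 (without WT 1) with a library left out, with 1503 called without Lats1/2iΔLgr5 1. Such fits have fewer samples; the cause of the drop without Lats1/2iΔLgr5 2 was not tested. Of the 12 listed Notch pathway genes, 3 had an absolute deposited log2 fold change of at least 1.

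The titles share replicate numbers, and the labels do not say whether equal numbers mark paired samples. Deviations of same-numbered libraries correlated at -0.16 across the listed genes. With 2 libraries per group and genes already selected, this value cannot settle whether the samples are paired. With the replicate block, log2 fold changes were 1.00, 0.78 and -1.01 for Notch1, Notch2 and Jag1, with 2535 listed genes called; the crossed pairing, chosen after seeing the data, called 2660. Of the 3 genes Notch1 had the fewest counts.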

Other observations

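A few further listed genes act on Notch receptors or their ligands and were chosen after their values were seen. They come from 30 such genes, also put together after values were seen, of which 15 were listed, 4 higher and 11 lower. Of all genes tested 20.6% were listed (8.81% higher, 11.7% lower), and of the 84 Notch pathway genes 14.3%. A list put together from seen values cannot be compared with those shares. Its count therefore does not show how often such genes changed. Tspan15, a tetraspanin that guides ADAM10, had 8558 and 8686 normalized counts in WT and 5812 and 6328 in Lats1/2iΔLgr5. Zmiz1, a cofactor of Notch1 at DNA, stood at 4050 and 4511 in WT and at 2662 and 2782 in Lats1/2iΔLgr5. Rab11a, a GTPase of the recycling endosome, had 6066 and 6298 against 3815 and 3752 normalized counts. Dnm2, the dynamin that cuts endocytic vesicles, went from 8273 ± 1474 to 5776 ± 475 (SD, n = 2). Its adjusted p in the authors' deposited DESeq2 test was 0.0496, just under the 0.05 threshold. Nle1, the mouse homologue of the fly Notch regulator Notchless and a ribosome assembly factor, was higher, at 125 and 108 in WT and 224 and 333 in Lats1/2iΔLgr5. All 5 are listed in the authors' deposited table, and in each the groups did not overlap, as in 99.9% of all listed genes. Values of these 5 are given on the authors' scaling alone.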
